A study of Mus musculus with 2 samples.

Results

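The 45 genes described here flank Il18, the gene of the cytokine interleukin-18, on mouse chromosome 9. They were chosen by their place around Il18 and by the difference between the genotypes on these same 2 arrays, and their probes were found by matching the accession of each array probe to RefSeq genes. The array named 20660 genes in this way, and all 45 flanking genes were among them. The difference between genotypes therefore describes these genes and is no independent evidence about them. The compared samples were brain RNA of male C57BL/6 N mice aged 12 weeks, either Il18+/+ or Il18-/-. Each genotype was represented by 1 one-colour array, which carried a pool of RNA from 7 mice. The sample labels give hippocampus as the tissue, while the extraction protocol speaks of prefrontal cortex. How the Il18 allele was made, and in which embryonic stem cell strain, is not given in the sources used here.

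Interleukin-18 is an interleukin-1 family cytokine that is matured by caspase-1 and acts through its receptor on immune cells and in brain. A gene knocked out by targeting is inherited together with the sequence linked to it, which is why genes around the targeted locus are a usual check in knockout studies. The region around Il18 is rich in genes with known roles in brain. It holds the serotonin receptor genes Htr3a and Htr3b, the dopamine receptor gene Drd2, the adhesion genes Ncam1 and Cadm1, the small heat shock genes Cryab and Hspb2, and several genes of mitochondrial metabolism.

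The genes next to Il18 in the order of RefSeq genes on 1 side are Bco2 and, beyond it, Pts, and all 3 read lower in Il18-/-. The bases before their start sites are shown because these neighbours were low together. Each sequence is the 250 bases before the annotated start, 5′ to 3′ on the strand of its gene, from RefSeq on GRCm38.p6. Capitals mark matches on either strand to the motif TATAAA, the motif CCAAT or the motif GGGCGG. No match overlaps another here.

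Il18, chr9:50554450-50554699, plus strand: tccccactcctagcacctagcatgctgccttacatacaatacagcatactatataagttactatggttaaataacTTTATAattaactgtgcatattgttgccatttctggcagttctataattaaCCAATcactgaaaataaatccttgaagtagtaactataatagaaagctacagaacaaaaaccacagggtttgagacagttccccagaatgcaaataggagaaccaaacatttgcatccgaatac

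Bco2, the downstream of its annotated starts, chr9:50553663-50553912, minus strand: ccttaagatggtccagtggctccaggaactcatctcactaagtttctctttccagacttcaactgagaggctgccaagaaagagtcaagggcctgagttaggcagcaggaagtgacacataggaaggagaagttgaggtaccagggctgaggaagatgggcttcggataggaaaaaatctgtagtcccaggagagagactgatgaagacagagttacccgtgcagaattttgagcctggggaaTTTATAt

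Pts, chr9:50528657-50528906, minus strand: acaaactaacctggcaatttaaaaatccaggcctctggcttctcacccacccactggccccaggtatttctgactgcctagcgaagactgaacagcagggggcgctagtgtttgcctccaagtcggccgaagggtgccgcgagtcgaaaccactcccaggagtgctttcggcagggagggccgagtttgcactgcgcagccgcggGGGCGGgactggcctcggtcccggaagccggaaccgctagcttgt

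The Il18 window held 1 match to TATAAA and 1 to CCAAT, the Bco2 window shown held 1 match to TATAAA, and the Pts window held 1 match to GGGCGG. Among all 32851 windows of the table, 12.4% held TATAAA, 33.8% held CCAAT and 32.7% held GGGCGG. The windows were unlike in base composition, with a GC content of 35.6% for Il18, 48.0% for Bco2 and 61.6% for Pts, against a median of 52.4% over all windows. A further annotated Bco2 start lies inside Il18 on the opposite strand, so the annotated Bco2 and Il18 genes overlap. The window of that start, not shown, held 3 matches to CCAAT and none to TATAAA or GGGCGG. Of the 45 flanking genes 34 had at least 1 window, and Cryab, Hspb2, Htr3a and Fxyd2 were not among them.

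A level is the log2 of a signal over its array's 75th percentile, so that a level of 0 equals that percentile. Differences are Il18-/- minus Il18+/+ on the log2 scale. Measured probes are those that both arrays read well above background, and the value of a gene is the mean over its measured probes. With 1 pool per genotype there was no replicate check and no test, and 1.5-fold, which is 0.58 on the log2 scale, was used to count genes. The scanner software's own error of a difference had a median of 0.21 over measured probes and lay between 0.11 and 0.35 for the flanking genes. The median SD was 0.07 between spots of one probe and 0.12 between probes of one gene. These errors cover the arrays and leave out differences between animals and pools.

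Both arrays together measured 15737 genes, with a median difference of 0.01, a 5th percentile of -0.45 and a 95th percentile of 0.33. The share of probes well above background was 67.2% in Il18+/+ and 65.4% in Il18-/-. Il18 itself read 1.37 in Il18+/+ and -0.12 in Il18-/-, a difference of -1.49, by 1 probe that stayed well above background in Il18-/-. Where this probe lies relative to the deleted part is not known here, so it does not check the genotype. Added control RNA read 0.29 higher on the Il18-/- array over 8 control probes, and scaling to it lowers every difference by that amount.

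Of the 45 flanking genes 42 were measured. Their median was -0.06, and 25 of the 42 lay within 0.3 of 0, where 13208 of all 15737 measured genes did. The median size of the difference, whatever its direction, was 0.25 for the flanking genes and 0.12 for all measured genes. At 1.5-fold or more, 8 were lower in Il18-/-, where 2.57% of all measured genes were, and 3 were higher, where 1.68% of all measured genes were. Either way these were 11 of 42, where 4.25% of all measured genes were past 1.5-fold. At 2-fold or more 5 were lower and 3 higher, where 0.451% and 0.642% of all measured genes were. The 8 lower genes were Tmem25, Bco2, Cryab, Htr3a, Pts, Tmprss5, Layn and Alg9, and the 3 higher ones were Fxyd2, Pdzd3 and 2900052N01Rik. Of these 11, 8 were read by 1 measured probe, and in Cryab, Fxyd2 and Layn every probe was past 1.5-fold. Their differences were 3.12 to 12.0 times the scanner software's error. The 1.5-fold limit itself forces ratios near the low end of this range, so they add no support for the differences. Just past 1.5-fold lay Alg9 at -0.64, and just short of it lay Nnmt at -0.52. On the higher side the nearest values were Zbtb16 at 0.36 and 2900052N01Rik at 1.21, with no flanking gene between them.

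**Figure D1:**
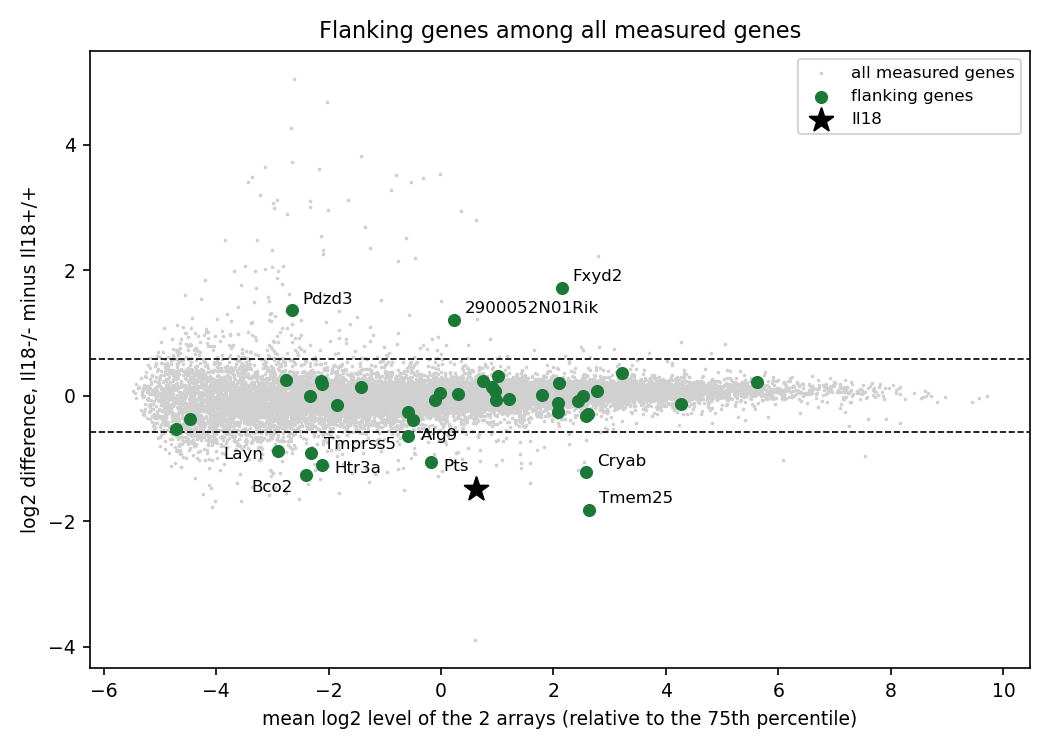
Difference between genotypes (log2, Il18-/- minus Il18+/+) against the mean log2 level of the 2 arrays for all 15737 measured genes (grey), the 42 measured flanking genes (green) and Il18 (star), with dashed lines at 1.5-fold. Tmem25, Cryab and Fxyd2 lie at levels where the grey cloud is narrow, while Bco2, Htr3a, Tmprss5, Layn and Pdzd3 lie among dimmer genes, whose differences spread more widely.

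Immediately beside Il18, Bco2 and Pts were lower in Il18-/-, while the nearest measured genes on the other side were within 1.5-fold. Bco2, which encodes a mitochondrial enzyme that cleaves carotenoids, read -1.77 in Il18+/+ and -3.04 in Il18-/-, a difference of -1.27 or 2.41-fold lower. Pts, which encodes an enzyme of the synthesis of tetrahydrobiopterin, the cofactor of the enzymes that make dopamine and serotonin, read 0.36 and -0.70, or 2.09-fold lower. Plet1, the next measured gene beyond Pts, was no member of the list and differed by 0.28.

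On the other side of Il18 the first gene, Tex12, which encodes a protein of the synaptonemal complex of meiosis, was not above background on either array. Sdhd, which encodes a membrane anchor of succinate dehydrogenase, read 4.33 and 4.19, a difference of -0.14. Timm8b, which encodes a small chaperone of the mitochondrial intermembrane space, read 5.50 and 5.72, a difference of 0.22. Dlat, which encodes the acetyltransferase of the pyruvate dehydrogenase complex, differed by -0.09, and Dixdc1, which encodes a DIX domain protein of Wnt signalling, by -0.26. So the low values on this side began with Cryab, 11 places from Il18.

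The neurotransmitter receptor genes were dim on these arrays. Htr3a, which encodes a subunit of the serotonin-gated ion channel found on a class of interneurons, read -1.56 in Il18+/+ and -2.66 in Il18-/-, a difference of -1.10 or 2.15-fold lower. Htr3b, which encodes a partner subunit and lies beside Htr3a, was not above background on either array, nor was Ankk1, a kinase gene close to Drd2. Drd2, which encodes the D2 dopamine receptor, read -4.28 and -4.64, a difference of -0.37. These values are for tissue pieces, in which fewer cells of a type and less RNA per cell cannot be told apart.

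Markers of the cells that express these receptors were read beside them. All 9 interneuron markers were measured with 7 lower and 2 higher and none at 1.5-fold, a median of -0.18, a lowest difference of -0.34 and a highest of 0.18. Their summed signal, in multiples of the 75th percentile, was 284 in Il18+/+ and 306 in Il18-/-, and 74.1 and 68.2 without Cck, the brightest of them. Of the 6 striatal markers 3 were lower and 3 higher, between -0.18 and 0.27. Among other serotonin receptor genes elsewhere in the genome, Htr2c was 1.83-fold lower, with levels of -0.64 and -1.51, while Htr1a differed by -0.44, Htr2a by -0.38 and Htr4 by 0.08. Of the other dopamine receptor genes Drd1, Drd4 and Drd5 lay between -0.05 and -0.01, and Drd3 was not measured.

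Among the chaperone and cytoskeletal genes Cryab stood apart from its neighbours. Cryab, which encodes alpha-B crystallin, a small heat shock protein abundant in oligodendrocytes and astrocytes, was read by 2 probes. The first went from 4.52 in Il18+/+ to 3.35 in Il18-/- and the second from 1.87 to 0.59, differences of -1.17 and -1.28. Hspb2, a small heat shock gene that RefSeq places within the annotated Cryab gene, read -2.21 and -2.03, a difference of 0.18. The probes of this overlapping pair thus lay on opposite sides of 0.

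Small heat shock genes on other chromosomes differed by less than Cryab did. Hspb1 read 3.32 and 2.79, a difference of -0.52, Hspb8 differed by -0.31 and Hspb6 by -0.15, while Hspb3 differed by 0.17. Myelin markers were measured in 10 of 10 cases, with 8 lower and 2 higher, none at 1.5-fold, and a median of -0.19. Their summed signal was 264 in Il18+/+ and 205 in Il18-/-. Of the 7 astrocyte markers 2 were lower and 5 higher, with a median of 0.06 and a summed signal of 345 and 337, or 36.5 and 38.5 without Aldoc, the brightest. The part of the myelin markers in the Cryab value was not tested.

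The other genes of this group were within 1.5-fold in the mean of their probes. Tagln, which encodes transgelin of smooth muscle, read 1.79 on both arrays, although 6 of 7 smooth muscle and pericyte markers were lower. The median of these markers was -0.40 and their summed signal 4.46 and 3.65, and 1 of them, Abcc9 at -0.63, was past 1.5-fold. Some were dim, with Myh11, Kcnj8 and Cnn1 at -3.79, -3.53 and -2.71 in Il18+/+. Rdx, which encodes radixin, a linker of membrane and actin, had 1 probe at 0.17 and another, designed on a different transcript, at -0.26. Its relatives Ezr and Msn, which encode ezrin and moesin, differed by -0.03 and -0.15. Arhgap20 differed by -0.33 and Ttc12 by -0.01.

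Cep164, which encodes a protein of the distal appendages of centrioles, was read by 3 probes that were all lower, by -0.74, -0.16 and -0.26. Only the first of these was past 1.5-fold, with levels of -1.27 and -2.004, and the mean over probes was -0.39.

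The membrane and adhesion genes held the largest differences of the list in both directions. Tmem25, which encodes a transmembrane protein of the immunoglobulin superfamily expressed in neurons, read 3.53 in Il18+/+ and 1.72 in Il18-/-, a difference of -1.82 or 3.52-fold lower by 1 probe. Fxyd2, which encodes the gamma subunit that modulates the sodium-potassium pump, was read by 2 probes. The first went from 1.45 to 3.11 and the second from 1.12 to 2.91, differences of 1.66 and 1.79. On the glass the second Fxyd2 spot lay among neighbouring spots that differed in the same direction, and the first did not, so that the value without the second is 1.66. No other probe of a flanking gene lay in such a cluster of spots.

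Other genes of the same pump family were read for comparison. Fxyd6, which lies next to Fxyd2, read 4.64 and 5.46, a difference of 0.82 or 1.76-fold higher. Fxyd1, Fxyd5 and Fxyd7, elsewhere in the genome, differed by -0.19, -0.12 and 0.08. The 2 neighbouring Fxyd genes were thus higher in Il18-/- on these arrays, and the others were within 1.5-fold.

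Pdzd3, which encodes a PDZ domain scaffold of epithelia and is the gene of the list farthest from Il18, read -3.33 and -1.96, a difference of 1.37 or 2.58-fold higher at a dim level. Layn, which encodes the hyaluronan receptor layilin, was lower by both of its probes. The first went from -2.66 to -3.82 and the second from -2.26 to -2.87, differences of -1.16 and -0.61. Sidt2, which encodes a lysosomal membrane protein, differed by 0.08, and Cadm1, which encodes a synaptic adhesion molecule, by 0.15, near its relatives Cadm2, Cadm3 and Cadm4 at -0.10, 0.19 and 0.01.

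Ncam1, which encodes the neural cell adhesion molecule, was read by 3 probes at 0.14, -0.41 and -0.09. The brightest of these, designed on another transcript than the rest, went from 4.34 to 4.47, and the dimmest from 0.58 to 0.17. The probes of Ncam1 therefore disagreed in direction, each by less than 1.5-fold.

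Apart from Bco2 and Pts, the genes of mitochondria and metabolism were within 1.5-fold. Of the 9 measured genes of this group 2 were lower at 1.5-fold and none was higher, where 2.57% and 1.68% of all measured genes were. Fdx1, which encodes the ferredoxin that carries electrons to mitochondrial P450 enzymes, was higher by both probes, at 0.25 and 0.16. Rexo2, which encodes a ribonuclease for very short RNA, was higher by both probes, at 0.35 and 0.28, and the first of these was the mean of 10 spots. Pafah1b2, which encodes a catalytic subunit of platelet-activating factor acetylhydrolase, differed by -0.07. Nnmt, which encodes nicotinamide N-methyltransferase, an enzyme abundant in liver, read -4.44 and -4.97, a difference of -0.52, while all 8 liver markers were higher in Il18-/-.

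Enzymes that work with these proteins but lie elsewhere in the genome were compared next. For Pts, the tetrahydrobiopterin genes Gch1, Spr, Qdpr and Pcbd1 differed by -0.04, 0.31, 0.09 and 0.24, and Th, which encodes tyrosine hydroxylase, by 0.06. None of these reached 1.5-fold, and Tph2 was not measured. For Sdhd, the other subunit genes Sdha, Sdhb and Sdhc lay between 0.12 and 0.16. For Dlat, the genes Pdha1, Pdhb, Pdhx and Dld lay between 0.05 and 0.21, and for Timm8b, the genes Timm8a1, Timm9, Timm10 and Timm13 lay between 0.08 and 0.16.

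Over all 63 such partner genes of the flanking genes, 59 were measured. Their median was 0.05. At 1.5-fold 1 of them, Htr2c, was lower and none was higher, where 2.57% and 1.68% of all measured genes were. The flanking genes had a median of -0.06 and 11 of 42 past 1.5-fold, where 4.25% of all measured genes were. The partners were chosen for function and the flanking genes with their differences in view, so the 2 counts are not a comparison of like lists.

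Among proteases, kinases and phosphatases 1 gene of 6 reached 1.5-fold, where 4.25% of all measured genes did. Tmprss5, which encodes a membrane-bound serine protease of the nervous system, read -1.84 and -2.76, a difference of -0.92 or 1.89-fold lower. Bace1, which encodes the beta-secretase that cleaves the amyloid precursor protein, read 2.77 and 2.47, a difference of -0.29. App and Bace2 differed by 0.07 and -0.28. Pcsk7, which encodes a proprotein convertase, differed by 0.02.

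The salt-inducible kinase genes were slightly lower by every measured probe. The 3 probes of Sik3 lay between -0.29 and -0.21 and the 2 probes of Sik2 at -0.22 and -0.08. Sik1, on another chromosome, differed by -0.40, and all were within 1.5-fold. Ppp2r1b, which encodes a scaffold subunit of protein phosphatase 2A, had 1 measured probe at 0.26, and its paralogue Ppp2r1a differed by -0.15.

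None of the 8 measured nuclear, RNA and protein turnover genes reached 1.5-fold, where only 4.25% of all measured genes did. Of the 8, 6 were above 0, as were 8275 of all 15737 measured genes. The largest difference was that of Zbtb16, which encodes the transcription factor PLZF, with levels of 3.04 and 3.40 and a difference of 0.36. Rbm7, which encodes a subunit of a nuclear RNA exosome adaptor, and Bud13, which encodes a splicing factor subunit, each differed by 0.23. Zw10, Usp28, Zpr1 and Rnf214 lay between -0.07 and 0.07, and Zc3h12c differed by 0.15. Zw10 encodes a protein of kinetochores and Golgi trafficking, and Usp28 a deubiquitinase.

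Alg9, which encodes a mannosyltransferase of N-glycan assembly, read -0.27 and -0.91, a difference of -0.64 or 1.56-fold lower. 2900052N01Rik, a long non-coding RNA by its RefSeq type, read -0.37 and 0.84, or 2.32-fold higher. Each was read by 1 probe.

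**Figure D2:**
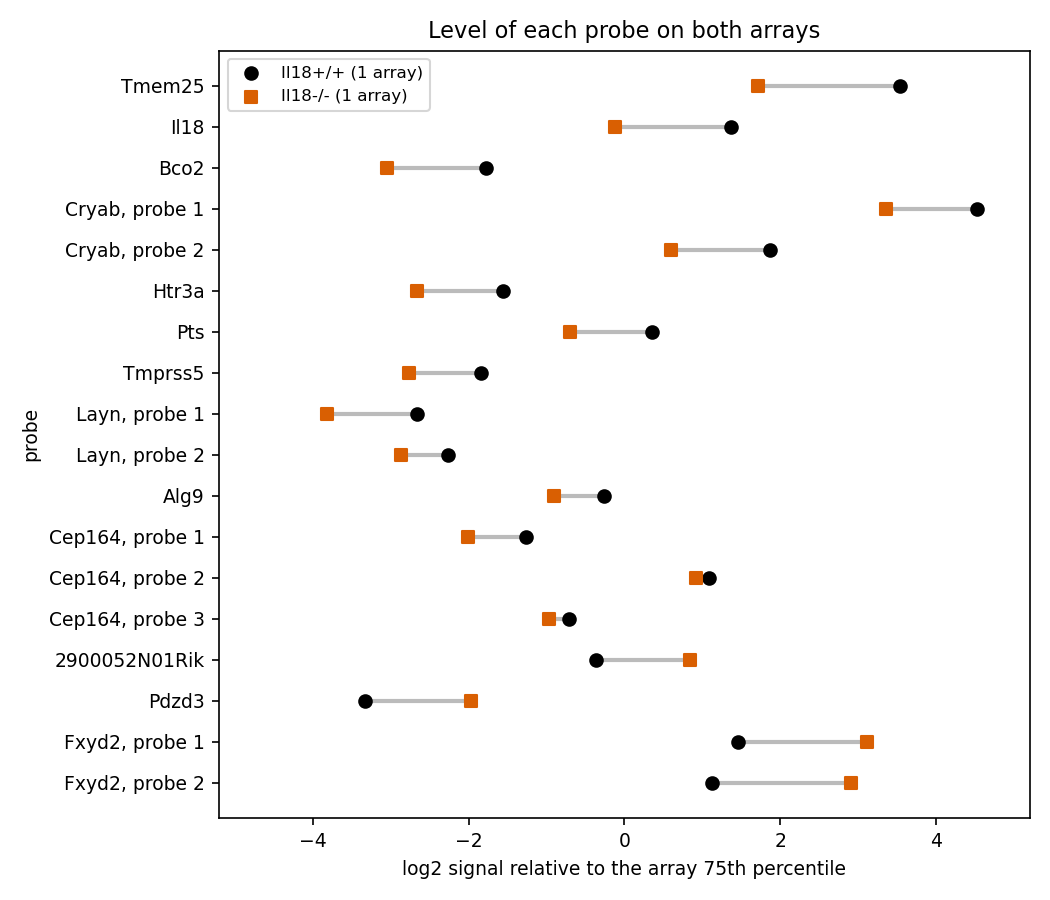
Level of each measured probe (log2 signal relative to the array's 75th percentile) on the Il18+/+ array (black circles) and the Il18-/- array (orange squares) for Il18 and the 12 flanking genes with at least 1 probe past 1.5-fold; each symbol is 1 array and there are no error bars. Both probes of Cryab and of Layn lie lower in Il18-/- and both of Fxyd2 higher, while 1 of the 3 Cep164 probes shows a difference past 1.5-fold.

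Probes of the same gene mostly gave like values. Of the 12 flanking genes with several measured probes, 8 had all probes on the same side of 0 and 4 did not, namely Ncam1, Rdx, Ttc12 and Zpr1. In 8 of the 12 the probes lay within 0.15 of each other. The widest ranges were those of Cep164, at 0.58, and of Layn and Ncam1, at 0.55 each.

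Along the gene order 7 of the 8 lower genes lay within 60 places of Il18. Between Pdzd3 and Zc3h12c, the outermost genes of the list, RefSeq places 201 genes of all types. Of the 13 measured flanking genes within 20 places of Il18, 4 were lower at 1.5-fold and none was higher. From 21 to 60 places 3 of 16 were lower and 1 higher, and from 61 places on 1 of 13 was lower and 2 were higher. With the other genes of the interval added, 4 of 19 were lower and none higher within 20 places, 4 of 23 lower and 2 higher from 21 to 60, and 2 of 44 lower and 6 higher beyond. Beyond 44 places all genes of the interval lie on the lower-coordinate side, so that distance and side cannot be told apart there. On the higher-coordinate side 4 of 23 were lower and none higher, and on the lower-coordinate side 6 of 63 were lower and 8 higher. Over all measured genes the shares were 2.57% lower and 1.68% higher. Since the list was chosen with these differences known, the counts by distance and by side are a description. The lone gene of the list lower beyond 60 places was Tmem25, at 122 places. Ift46, an other gene of the interval at 123 places, was lower in the mean of 2 probes that disagreed. Some low genes were adjacent among the measured genes, namely Pts, Bco2 and Il18, Layn and Hoatz, and Ift46 and Tmem25. Others were followed by an unremarkable gene, as Hspb2 at 0.18 followed Cryab and Ppp2r1b at 0.26 followed Alg9.

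The other genes between the outermost ones are those left after the list was chosen, so they are no unselected reading of the interval either. Of these, besides Il18, 64 had a named probe and 44 were measured. At 1.5-fold 2 were lower and 5 higher, 4.55% and 11.4%, beside 2.57% and 1.68% of all measured genes, and their median was -0.05. With scaling to added control RNA 8 were lower and 2 higher, which turns the balance. Over all genes 10.5% were lower and 0.82% higher under that setting. With normexp none was lower and 5 were higher, where 0.68% and 0.718% of all genes were. With dim probes kept, 4 of the 64 were lower and 9 higher, where 6.57% and 3.94% of all genes were. With a stricter limit on dim probes, and with the brightest probe per gene, 1 was lower and 6 were higher. Over all genes 1.44% were lower and 1.15% higher with the stricter limit, and 2.63% and 1.78% with the brightest probe. At the scaling to the 75th percentile the lower ones were Hoatz, which encodes a protein of cilia and lies next to Layn, at -0.80, and Ift46. The higher ones were Jaml, at 1.35, Apoc3, at 1.35, Fxyd6, at 0.82, Gm5617, at 0.73, and Slc37a4, which encodes the glucose-6-phosphate transporter, also at 0.73.

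Ift46, which encodes a protein of intraflagellar transport, lies next to Tmem25, and its 2 probes disagreed. The dimmer went from -2.24 to -4.29, a difference of -2.05, and the brighter from 2.91 to 3.54, a difference of 0.63. The mean of -0.71 therefore describes neither probe. Rps25, a ribosomal protein gene of the same stretch, had a dim probe at -1.01 and a bright one at 0.18.

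Apoc3 and Apoa1 lie between Sik3 and Zpr1 and encode apolipoproteins made mainly by liver. Apoc3 read -2.49 and -1.14. Apoa1 was well above background in Il18-/- only and was at least 3.20-fold higher there, measured against the dimmest signal well above background. Of the 8 liver markers, among them Apoc3 itself, all were at least 1.5-fold higher in Il18-/-, with a median of 2.94. Apoa2, the brightest of them, was so in the mean of 2 probes that differed, at 0.22 and 1.59. Their summed signal was 1.97 in Il18+/+ and 6.83 in Il18-/-, and 0.64 and 4.34 without Apoa2. Zpr1, Bud13 and Sik3, which flank this apolipoprotein cluster, differed by 0.00, 0.23 and -0.26.

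**Figure D3:**
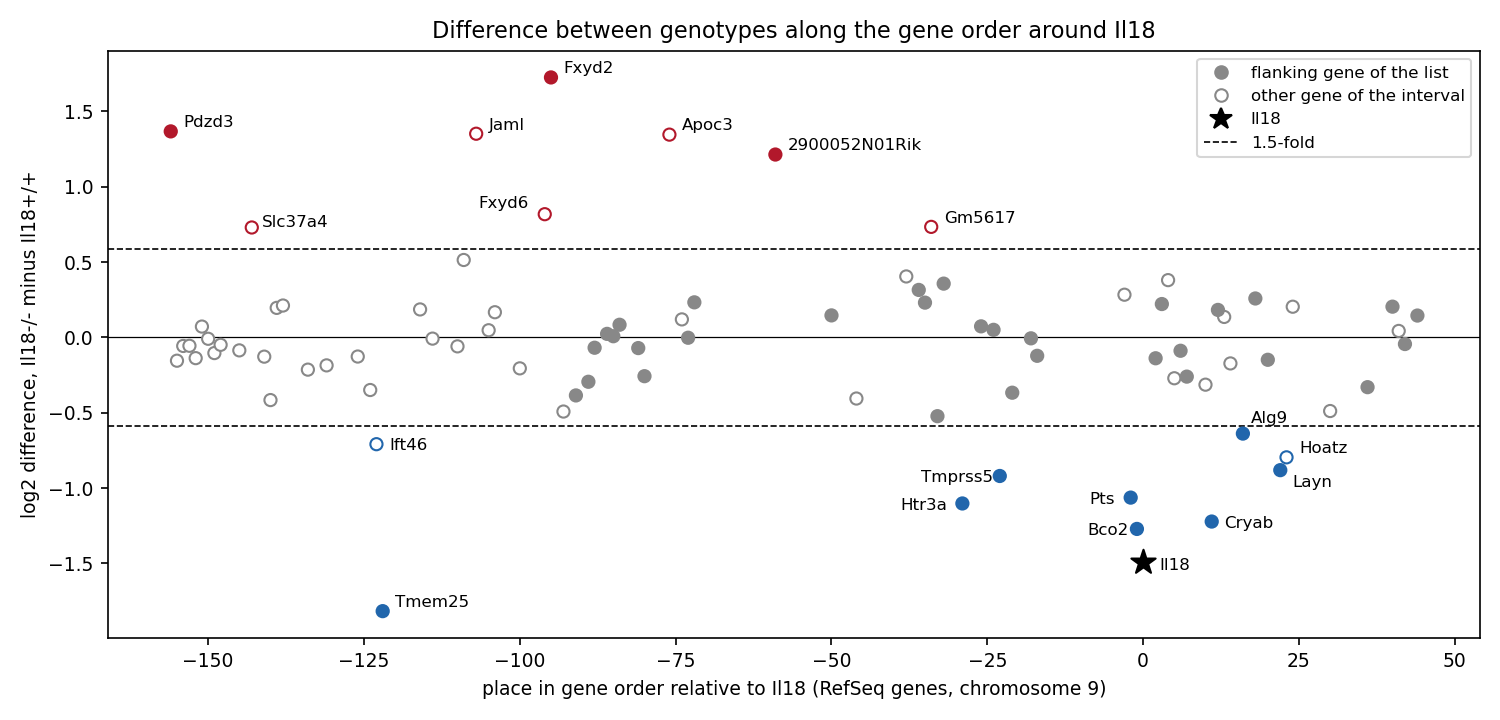
Difference between genotypes (log2) of each measured gene against its place in the RefSeq gene order relative to Il18 (star), for flanking genes of the list (filled) and other genes of the interval (open), coloured blue where at least 1.5-fold lower and red where at least 1.5-fold higher. Pts and Bco2 lie low beside Il18 and Cryab 11 places from it. The red points, Gm5617 apart, all lie at least 59 places away on the lower-coordinate side. On the higher-coordinate side the interval ends 44 places from Il18.

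Markers of other tissue differed between the arrays and are given here for the whole list. All 13 choroid plexus markers were measured and all were at least 1.5-fold lower in Il18-/-, with a median of -1.18, a range from -1.65 to -0.93 and a summed signal of 383 in Il18+/+ and 193 in Il18-/-. The differences of Il18, Bco2, Cryab, Htr3a and Pts lie within this range. That of Tmem25 lies below it, and those of Tmprss5, Layn and Alg9 lie above it. A like size does not show a shared source. Of 8 markers of the medial habenula, a small nucleus of the epithalamus, 7 were measured and 6 were at least 1.5-fold higher, with a median of 1.57 and a summed signal of 1.72 and 7.36. The part of these tissues in the values of the flanking genes, and in that of Htr2c, was not tested.

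Markers of the regions the labels name were present on both arrays. All 5 dentate granule cell markers were measured, with a median of 0.21, as were all 5 pyramidal cell markers, with a median of 0.05, and all 5 neocortical markers, with a median of -0.16. No marker of these 3 lists reached 1.5-fold. They do not say which region was sampled.

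The direction of the 11 genes past 1.5-fold was the same under each of 10 other ways of processing. Several of these could change few or none of the values. With normexp background correction, which here adds an offset to every signal, Tmprss5 at -0.58, Alg9 at -0.57 and Layn at -0.44 were short of 1.5-fold, and the count of lower genes went from 8 to 5. The share of all measured genes that were lower at 1.5-fold went from 2.57% to 0.68% under that setting. Bco2 had the widest range, from -1.56 to -0.78.

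**Figure D4:**
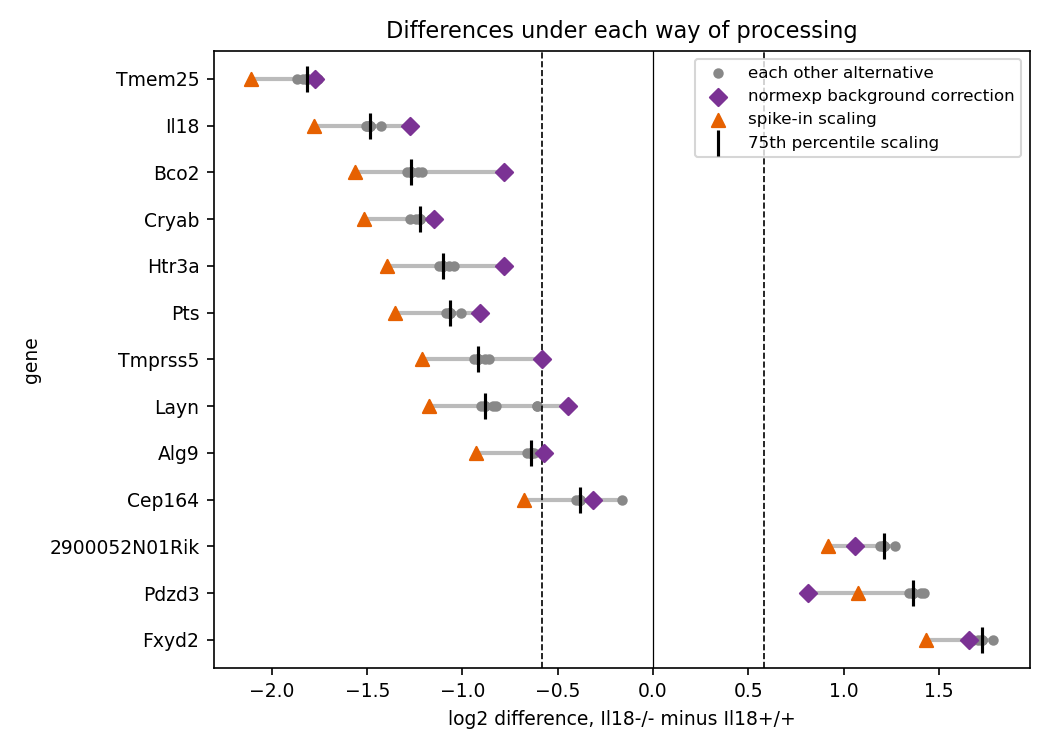
Log2 difference of Il18 and of the 12 flanking genes with at least 1 probe past 1.5-fold under the scaling to the 75th percentile (black bars), normexp background correction (diamonds), scaling to added control RNA (triangles) and each other alternative (grey circles), with dashed lines at 1.5-fold. Tmem25, Cryab, Pts and Bco2 stay beyond the lower line and Fxyd2, Pdzd3 and 2900052N01Rik beyond the upper line in all of them, while Alg9, Layn and Tmprss5 cross the lower line with normexp.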

How the data were processed

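Agilent Feature Extraction 10.10.1.1 made the deposited intensity values of the 2 one-colour arrays, per the submitters' processing notes, and the file headers give mm9 as the build of the design. Control spots were not used, nor were outlier spots, of which Il18+/+ had 124 and Il18-/- 177. The processed intensity was set to log2 after division by each array's 75th percentile, 694.8 for Il18+/+ and 709.9 for Il18-/-, and spots of a probe were averaged. Accessions matched RefSeq genes of GRCm38.p6 for 27235 of 55681 probes, and that assembly was used for names, gene order and promoter sequence. The authors' deposited value table is the processed intensity times 2.05 for Il18+/+ and 1.92 for Il18-/-, linear and uncentred, with column medians of 151.5 and 139.5, and what set these constants stays unknown.

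The flanking genes, partner genes and markers were chosen with earlier results of these data known. Values are given on both arrays for Il18 and for each flanking gene with a probe past 1.5-fold, and for other genes by group. A spot counted as clustered when it was past 1.5-fold with at least 2 of its 18 nearest spots past 2-fold in the same direction, over spots well above background on either array. Normexp used the median signal and an offset of 50. On simulated arrays of 15737 genes for this comparison, 100% of 100 genes changed 2-fold and 0% of unchanged genes were counted at 1.5-fold. The simulation held the noise of repeated spots only, which is small beside the 1.5-fold limit. Its outcome was thus set in advance, and it checks the counting only and says nothing about differences between pools. Normexp ran in limma 3.58.1 under R 4.3.3, and everything else in Python 3.11.15 with pandas 2.3.3, numpy 2.4.6, scipy 1.17.1 and matplotlib 3.10.9.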

Additional observations from a re-analysis of the deposited data

How the results depend on the processing

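Alternatives were quantile, median scaling, the 75th percentile over detected probes, scaling to added control RNA, normexp background correction, keeping dim probes, a stricter limit for them, taking the brightest probe per gene, the authors' deposited table, and leaving out probes in spot clusters. Of 130 values for Il18 and the 12 named genes, 106 moved by less than 0.12, the median SD between probes of a gene, 24 moved by more and 0 changed direction. Much of this was set in advance. The authors' table is a constant multiple of the processed intensity and returned the same values. Keeping dim probes changed none of the values, and leaving out clustered spots could change Fxyd2 only. The stricter limit and the brightest probe can change the value only of genes with several probes. Median scaling and the 75th percentile over detected probes shift every value by a constant below 0.12. Scaling to added control RNA moved the median of the flanking genes from -0.06 to -0.35, their lower count from 8 to 13, and the other genes of the interval from 2 to 8 lower and from 5 to 2 higher. Normexp gave 5 lower flanking genes and 0 lower genes among the others. Without a filter 4 of the others were lower and 9 higher, where 6.57% and 3.94% of all genes were. The stricter filter and the brightest probe each left 1 lower. Over all genes, 405 were lower and 264 higher, against 324 and 311 with quantile normalization, 317 and 320 with median scaling, 1659 and 129 with added control RNA, and 107 and 113 with normexp. Median scaling put the median of the flanking genes at 0.00 and left Alg9 short of 1.5-fold. The number of arrays limits the precision, and dim genes such as Drd2 and Nnmt had the largest scanner software errors, 0.31 and 0.35. No paired analysis was possible because each genotype had 1 array.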

Other observations

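Probes that the files name only by a genome region (mm9) were read apart from the named genes. On chromosome 9, 280 of them were measured, of which 15 were lower and 12 higher in Il18-/- by 1.5-fold or more, together 9.64%. On all other chromosomes 7626 were measured and 7.23% were past 1.5-fold. Their median difference was -0.03 on chromosome 9 and -0.03 elsewhere.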
